A study of Mus musculus with 59 samples.

Results

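Described here are 10 genes of bile acid synthesis and transport in the livers of mice with altered E2f alleles. They were listed by name, but with earlier results of these data known. The genes are Cyp7a1, Cyp8b1, Hsd3b7, Cyp27a1, Cyp7b1, Baat, Nr1h4, Nr0b2, Slc10a1 and Abcb11. All 10 were on the array, as 16 of the 34945 probe sets annotated to exactly 1 gene symbol, out of 18193 genes in all. The probe set of highest mean signal stands for each gene, and every further probe set is given beside it.

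The study set livers of E2f3b knock-in mice (3bKI, 5 arrays), E2f1 knock-in mice (1KI, 10 arrays) and E2f3a knock-out mice (3aKO, 10 arrays) against livers of wild-type mice (wt, 12 arrays). E2f1 and E2f3 encode transcription factors known for their control of cell cycle genes, and the E2f3 locus gives a longer (E2f3a) and a shorter (E2f3b) product from separate start sites. All mice were 4 weeks old and of a mixed background of FVB/NT, 129S1/Svlmj and C57BL/6NT, and total RNA of the liver was measured on Affymetrix arrays. The place of each knock-in, the cells in which the alleles were altered, the sex of the mice and the time of day at which livers were taken are not stated in the labels. Log2 signals were deposited in 2 normalizations. One holds 1KI, 3aKO and wt, and the other holds 3bKI with the same 3aKO and wt arrays normalized anew, so 1KI and 3bKI were not set against each other. The comparisons with wt share the wt arrays, and those with 3aKO share the 3aKO arrays. The labels do not say that each array is a separate mouse, so p-values measure the spread between arrays, which may in part be technical.

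Bile acids are made from cholesterol in hepatocytes. In the classic pathway Cyp7a1 carries out the first and rate-limiting step, Hsd3b7 acts on the product, and Cyp8b1 adds the 12-alpha-hydroxyl group that separates cholic acid from the other primary bile acids. In the alternative pathway Cyp27a1 oxidizes the side chain and Cyp7b1 follows. Baat joins the finished acid to taurine or glycine, Abcb11 (the bile salt export pump) moves it into bile, and Slc10a1 (NTCP) takes it up again from the blood. Bile acids bind the nuclear receptor FXR, encoded by Nr1h4, which induces Nr0b2 (SHP), a repressor of Cyp7a1 and Cyp8b1.

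Promoter sequences are shown for the 4 genes that rose in 3bKI livers over wt, each as the stretch around a listed start site. RefSeq's GRCm38.p6 table, with 250 bases before and 50 bases after a start site, held entries for 7 of the 10 genes, and none for Cyp7a1, Cyp7b1 or Baat. The Nr0b2 promoter is chr4:133553126-133553425 on the plus strand, that of Hsd3b7 is chr7:127800359-127800658 on the plus strand, that of Cyp8b1 is chr9:121916256-121916555 on the minus strand, and that of Cyp27a1 is chr1:74713285-74713584 on the plus strand. The Cyp27a1 window lies inside the gene, whose RefSeq start is base 74713148, upstream of the window. Capitals mark the 1 motif match found.
Nr0b2: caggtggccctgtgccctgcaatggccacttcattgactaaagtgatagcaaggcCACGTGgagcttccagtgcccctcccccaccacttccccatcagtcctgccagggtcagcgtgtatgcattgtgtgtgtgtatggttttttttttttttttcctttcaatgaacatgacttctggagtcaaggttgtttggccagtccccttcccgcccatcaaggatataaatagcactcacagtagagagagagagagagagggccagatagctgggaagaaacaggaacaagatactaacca
Hsd3b7: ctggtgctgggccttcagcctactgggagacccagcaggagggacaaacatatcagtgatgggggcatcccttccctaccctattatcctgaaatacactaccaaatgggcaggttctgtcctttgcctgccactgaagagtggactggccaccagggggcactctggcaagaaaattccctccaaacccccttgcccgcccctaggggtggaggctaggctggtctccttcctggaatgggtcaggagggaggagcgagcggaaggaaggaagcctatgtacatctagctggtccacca
Cyp8b1: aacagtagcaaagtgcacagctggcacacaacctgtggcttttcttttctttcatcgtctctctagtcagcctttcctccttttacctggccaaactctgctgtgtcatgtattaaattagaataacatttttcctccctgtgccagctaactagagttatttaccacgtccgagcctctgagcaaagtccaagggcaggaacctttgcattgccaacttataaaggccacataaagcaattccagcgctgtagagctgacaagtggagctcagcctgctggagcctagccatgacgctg
Cyp27a1: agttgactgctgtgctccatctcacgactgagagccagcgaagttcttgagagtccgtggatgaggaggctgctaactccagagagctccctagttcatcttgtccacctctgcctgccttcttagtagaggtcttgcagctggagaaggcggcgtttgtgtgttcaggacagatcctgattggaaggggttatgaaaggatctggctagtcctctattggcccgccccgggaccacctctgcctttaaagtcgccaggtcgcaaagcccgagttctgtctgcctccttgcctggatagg

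The search covered both strands for the E-box CACGTG, the D-box TTATGTAA, the nuclear receptor site AAGGTCA, the E2F sites TTTCGCGC and TTTGGCGC, and the FXR inverted repeat IR1 (AGGTCANTGACCT), whose arms overlap the nuclear receptor site. The E-box of Nr0b2 lay from base -195 to base -190 counted from the start site, and 7.15% of all 32851 promoters in the table held such a match. Only exact matches were counted, so a near match to IR1 in the Abcb11 promoter was left out. Near matches were not searched for in the other promoters. Motifs other than the E-box had no exact match in the 8 promoters of the 7 genes (Slc10a1 has a pair of entries). Their shares over all promoters were 0.938% for the D-box, 4.72% for the nuclear receptor site, 0.323% and 0.514% for the E2F sites and 0.00913% for IR1. A match is a description of letters and not of binding, and these windows are short.

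Markers fitted the labelled tissue, as the 8 hepatocyte genes (Alb, Ttr and others) averaged between 14.39 and 14.45 on the log2 scale in 3bKI arrays and between 14.41 and 14.47 in wt arrays, and 0 of them passed the test in any comparison. E2f3 averaged 7.75 ± 0.15 in 3aKO arrays and 8.00 ± 0.18 in wt arrays (SD, n = 10 and 12, adjusted p = 0.134), and E2f1 averaged 6.39 ± 0.25 in 1KI arrays and 6.63 ± 0.32 in wt arrays (adjusted p = 0.0864). In the normalization with 3bKI, E2f3 averaged 7.67 ± 0.24 in 3bKI arrays and 7.91 ± 0.18 in wt arrays (adjusted p = 0.0491), while its second probe set averaged 6.07 ± 0.20 in 3bKI arrays and 5.88 ± 0.13 in wt arrays. What part of each locus these probe sets read is not stated in the labels, so they do not check the labels. The 3bKI arrays stood apart in control measures. Their hybridization controls averaged 11.58 ± 0.29, against 10.17 ± 0.12 in 3aKO and 10.40 ± 0.51 in wt arrays, and their poly-A controls 13.81 ± 0.04, against 8.75 ± 0.32 in 3aKO and 9.04 ± 0.39 in wt arrays. The 1KI arrays also had higher hybridization controls (11.31 ± 0.24), as did wt replicates 1 and 2, but no 3aKO array did. In bulk liver, fewer cells of a type and less RNA per cell cannot be told apart.

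In 3bKI livers Cyp7a1, the first enzyme of the classic pathway, was lower, while Hsd3b7, Cyp8b1 and Cyp27a1 were higher. Against wt, 4 of the 10 genes rose (Cyp8b1, Hsd3b7, Cyp27a1 and Nr0b2), 3 fell (Cyp7a1, Nr1h4 and Slc10a1) and 3 did not pass (Cyp7b1, Baat and Abcb11). Over all genes 29.2% passed in this comparison, 13.4% upward and 15.9% downward. The 10 genes are bright on the array, between the signal percentiles 87.9 and 99.2 of all genes over both normalizations, and bright genes passed more often. In a fit of genes above the median signal 50.1% passed against wt and 54.6% against 3aKO, with 7 and 6 of the 10 again called. The median size of the 10 log2 changes was 0.37, against 0.12 over all genes, and their median was 0.27, against 0.00. All genes split into 2433 higher and 2885 lower calls, and into 1742 and 3693 after array medians were made equal, while 4 of the 10 genes rose and 3 fell in both. Against 3aKO, 3 genes rose (Cyp8b1, Hsd3b7 and Cyp27a1), 3 fell (Cyp7a1, Nr1h4 and Slc10a1) and 4 did not pass. There 34.2% of all genes passed, 16.5% upward and 17.7% downward, and the median of the 10 log2 changes was -0.06 against 0.02 over all genes. Values did not overlap between groups for 1 gene against wt, Hsd3b7, and for 3 genes against 3aKO, which were Hsd3b7, Nr1h4 and Slc10a1; over all genes 7.18% and 12.2% did not overlap. With equal array medians the split over all genes against 3aKO was 2006 higher and 4042 lower, beside 3002 and 3216 as deposited.

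**Figure D1:**
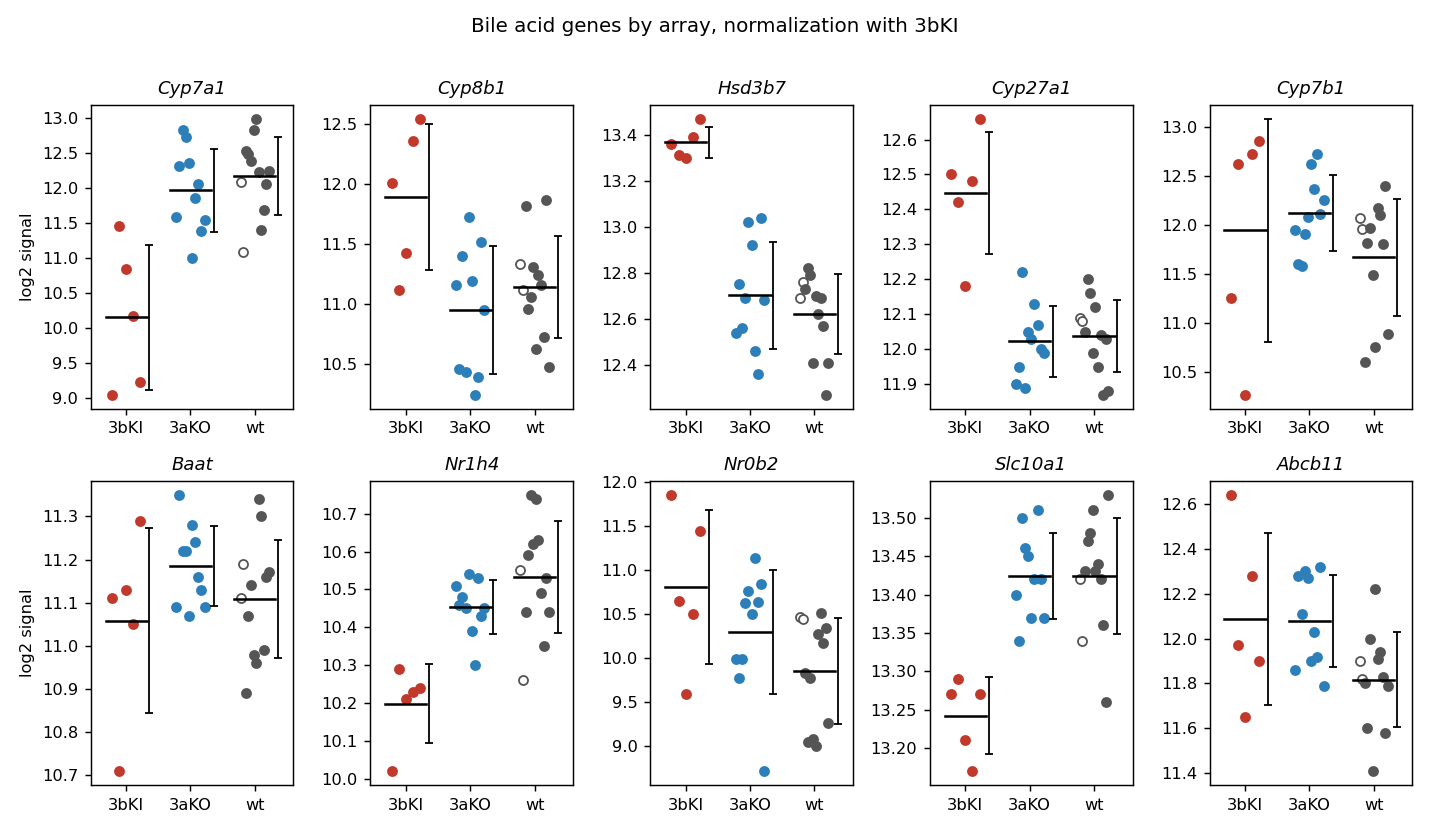
Log2 signal of each gene in every array of the normalization with 3bKI (5 arrays), 3aKO (10) and wt (12); lines are group means, bars are SD, and open wt points are wt replicates 1 and 2, which had hybridization controls as high as 3bKI. The 5 Hsd3b7 values of 3bKI, 13.30 to 13.47, lie above all 3aKO and wt values, while Cyp7a1 is low but widely spread in 3bKI.

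Cyp7a1 (probe set 1438743_at) showed the largest change of the 10 genes. Its log2 signal was 9.05, 11.46, 10.85, 10.18 and 9.24 in 3bKI replicates 1 to 5, against a lowest, median and highest of 11.00, 11.96 and 12.82 in 3aKO and 11.09, 12.23 and 12.99 in wt. Replicates 1, 3, 4 and 5 lay below every 3aKO and wt array, and replicate 2 lay within the range of both groups. The log2 change against wt was -2.01 ± 0.33 (SE), a 4.03-fold lower signal (adjusted p = 2.3e-05), and -1.81 ± 0.34 against 3aKO (adjusted p = 0.000103), lower than the group mean in 5 of 5 arrays both times. The second probe set, 1422100_at, read 7.90, 10.23, 9.72, 8.87 and 8.09 in the same arrays. It fell by 1.59 on the log2 scale against wt and by 1.22 against 3aKO (adjusted p = 0.000665 and 0.0081), with the arrays in the same order. Spread in 3bKI was wide for this gene: the SD was 1.03 in 3bKI, against 0.60 in 3aKO and 0.55 in wt.

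Hsd3b7 (1416968_a_at) rose most evenly. It read 13.36, 13.31, 13.30, 13.39 and 13.47 in 3bKI replicates 1 to 5, against 12.36, 12.69 and 13.04 (lowest, median, highest) in 3aKO and 12.27, 12.69 and 12.82 in wt. Every 3bKI array lay above every other array. This gave a log2 change of 0.74 ± 0.10 against wt (adjusted p = 8.47e-07), a 1.68-fold higher signal, and 0.66 ± 0.10 against 3aKO (adjusted p = 4.96e-06). It passed against wt in each of 17 fits that left out 1 array, at 0.71 to 0.76.

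Cyp8b1 (1449309_at), the 12-alpha-hydroxylase, read 12.01, 11.12, 11.43, 12.36 and 12.55 in 3bKI replicates 1 to 5, against 10.24, 11.05 and 11.73 in 3aKO and 10.47, 11.14 and 11.87 in wt. Replicates 1, 4 and 5 lay above all other arrays and replicates 2 and 3 within their range. Cyp8b1 had a log2 change of 0.75 ± 0.25 against wt (adjusted p = 0.0203, higher in 4 of 5 arrays) and 0.95 ± 0.25 against 3aKO (adjusted p = 0.00418, 5 of 5). Without 3bKI replicate 4 or replicate 5 the change against wt no longer passed, at 0.64 and 0.59 (adjusted p = 0.0776 and 0.0944). Replicates 2 and 3, the lowest for Cyp8b1, were the highest for Cyp7a1.

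In the alternative pathway Cyp27a1 (1417590_at), the mitochondrial sterol 27-hydroxylase, read 12.50, 12.42, 12.18, 12.48 and 12.66 in 3bKI replicates 1 to 5, against 11.89, 12.02 and 12.22 in 3aKO and 11.87, 12.04 and 12.20 in wt. All but replicate 3 lay above every other array. Its log2 change was 0.41 ± 0.06 against wt (adjusted p = 1.53e-05) and 0.43 ± 0.07 against 3aKO (adjusted p = 1.06e-05). A dim second probe set, 1457665_x_at, read 2.53 to 2.66 in 3bKI and 2.40 to 2.75 in wt and did not pass in any comparison.

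Cyp7b1 (1421074_at), the oxysterol 7-alpha-hydroxylase, did not pass in 3bKI, where it had the widest spread of the 10 genes (SD 1.14). It read 11.26, 12.63, 10.27, 12.73 and 12.86 in 3bKI replicates 1 to 5, against 11.58, 12.11 and 12.73 in 3aKO and 10.61, 11.89 and 12.40 in wt. Replicates 2, 4 and 5 were high and replicates 1 and 3 low. These are also the 3 arrays with and the 2 arrays without a Y-linked signal (Eif2s3y, Kdm5d and Uty), and in mice Cyp7b1 is known as a gene with higher expression in male liver. The log2 change was 0.28 ± 0.32 against wt (95% interval -0.36 to 0.91, adjusted p = 0.577) and -0.18 ± 0.33 against 3aKO. Probe set 1421075_s_at gave 0.23 and -0.25 in these comparisons, and the dim 1446995_at gave -0.06 and -0.07, with none past the threshold.

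Baat (1419002_s_at), the conjugating enzyme, read 11.11, 10.71, 11.13, 11.05 and 11.29 in 3bKI replicates 1 to 5, against 11.07, 11.19 and 11.35 in 3aKO and 10.89, 11.12 and 11.34 in wt. Replicate 2 lay below all other arrays, replicate 4 just below the 3aKO range, and the other 3 within the ranges of both groups. For Baat the log2 change was -0.05 ± 0.07 against wt (95% interval -0.20 to 0.10, adjusted p = 0.671) and -0.13 ± 0.08 against 3aKO (adjusted p = 0.212), and the second probe set, 1419001_at, gave 0.01 and -0.05.

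Nr1h4 (1419105_at), which encodes the bile acid receptor FXR, read 10.02, 10.29, 10.21, 10.23 and 10.24 in 3bKI replicates 1 to 5, against 10.30, 10.46 and 10.54 in 3aKO and 10.26, 10.54 and 10.75 in wt. All 3bKI arrays lay below every 3aKO array, and 1 of the 12 wt arrays, replicate 2 at 10.26, lay in their range. Nr1h4 had a log2 change of -0.33 ± 0.06 against wt (adjusted p = 0.000189) and -0.26 ± 0.07 against 3aKO (adjusted p = 0.00326), a small shift of 1.26-fold and 1.19-fold.

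Nr0b2 (1449854_at), the repressor SHP, read 11.86, 10.65, 9.60, 10.50 and 11.45 in 3bKI replicates 1 to 5, against 8.72, 10.57 and 11.14 in 3aKO and 9.01, 10.01 and 10.52 in wt. Replicates 1 and 5 lay above every other array, and replicate 3 lay below the wt mean. The log2 change against wt was 0.96 ± 0.34 (adjusted p = 0.0331, higher in 4 of 5 arrays). It no longer passed without 3bKI replicate 1 or 5 (0.69 and 0.80, adjusted p = 0.155 and 0.111) or without wt replicate 4, 6, 7 or 12 (0.88 to 0.90, adjusted p = 0.0506 to 0.0517). Against 3aKO it was 0.51 ± 0.35 (95% interval -0.17 to 1.19, adjusted p = 0.277).

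The 2 arrays with the highest Nr0b2 among the 3bKI arrays, replicates 1 and 5, were those with the lowest Cyp7a1, at 9.05 and 9.24. Over the 27 arrays of this normalization, after each group's mean was subtracted, Cyp7a1 and Nr0b2 had a Pearson r of -0.49 and a Spearman rho of -0.57, and r was -0.46 without the 2 arrays farthest in Cyp7a1. Within the 20 arrays of lower hybridization controls, all wt or 3aKO, r was -0.31. Over the 32 arrays of the normalization with 1KI it was -0.21. Cyp8b1, named above as a further gene that SHP represses, did not run against Nr0b2. Its r with Nr0b2 was 0.26 over the 27 arrays and 0.04 over the 32, and it read 12.01 and 12.55 in 3bKI replicates 1 and 5. Among the pairs of members, Cyp7a1 with Nr1h4 had the largest size in the 3bKI normalization (r = 0.58 over 27 arrays, 0.48 within the 20 arrays). These values describe arrays that share a normalization, and no p is given. Only group means were subtracted, not the split between arrays with and without a Y-linked signal. In wt arrays Nr0b2 averaged 10.22 with that signal and 9.35 without it, Nr1h4 10.46 and 10.63, and Cyp7a1 11.83 and 12.64. In 3aKO arrays these means were 10.37 and 10.23, 10.42 and 10.49, and 11.57 and 12.36. In 3bKI arrays Cyp7a1 averaged 10.29 with it and 9.95 without it. The part of this split in the correlations was not tested.

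**Figure D2:**
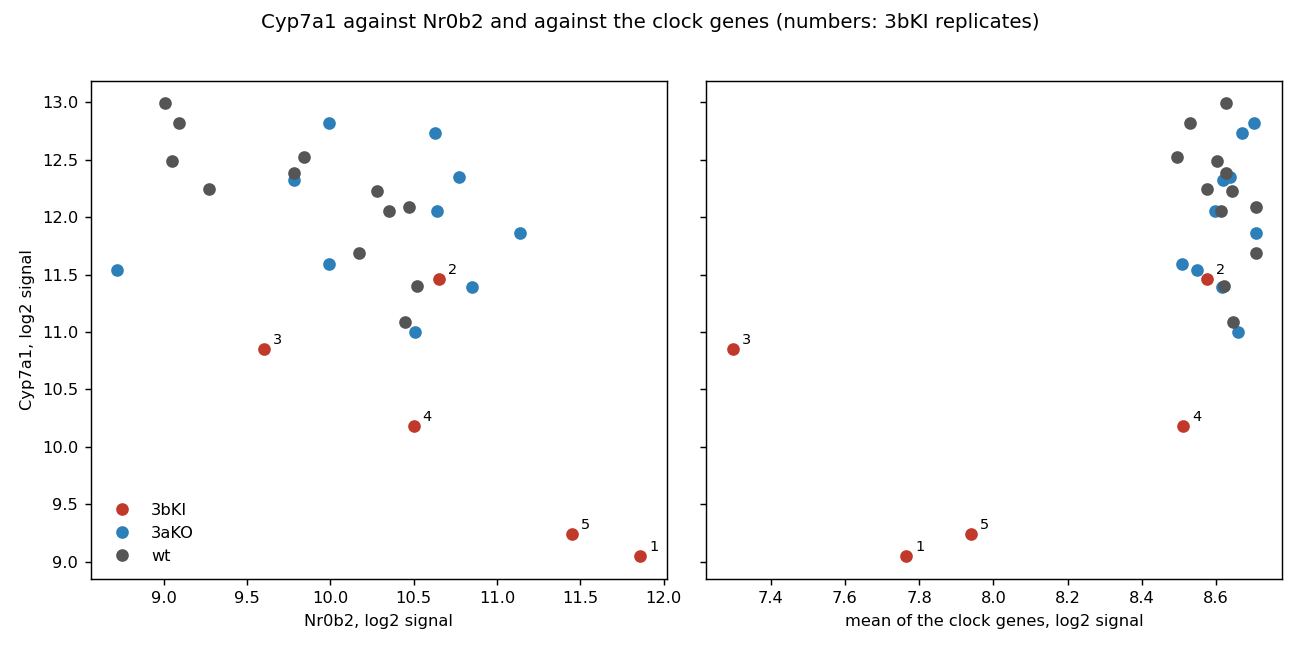
Cyp7a1 log2 signal in each array against Nr0b2 log2 signal (left) and against the mean log2 signal of 15 clock genes (right), for 3bKI (5 arrays, numbered by replicate), 3aKO (10) and wt (12). Replicates 1 and 5 of 3bKI have the lowest Cyp7a1, 9.05 and 9.24, and the highest Nr0b2, 11.86 and 11.45; 3 of the 5 3bKI arrays have a clock gene mean below that of all other arrays, with replicate 3 lowest at 7.30.

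Of the transporters, Slc10a1 (1424898_at), the uptake carrier, read 13.27, 13.29, 13.21, 13.17 and 13.27 in 3bKI replicates 1 to 5, against 13.34, 13.42 and 13.51 in 3aKO and 13.26, 13.43 and 13.53 in wt. It was lower than all 3aKO arrays in each case, and 1 wt array, at 13.26, lay in its range. Its log2 change was -0.18 ± 0.04 against wt (adjusted p = 0.00209) and -0.18 ± 0.05 against 3aKO (adjusted p = 0.00232). The second probe set, 1450261_a_at, did not pass, at -0.09 and -0.05 (adjusted p = 0.201 and 0.492). Abcb11 (1449817_at), the export pump, read 12.64, 11.97, 11.65, 12.28 and 11.90 in 3bKI replicates 1 to 5, against 11.79, 12.07 and 12.32 in 3aKO and 11.41, 11.82 and 12.22 in wt. Only replicates 1 and 4 lay above the wt range. For Abcb11 the log2 change was 0.27 ± 0.12 against wt (adjusted p = 0.103), which passed without replicate 3 (0.38, adjusted p = 0.0238), and 0.01 ± 0.13 against 3aKO (95% interval -0.24 to 0.26).

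Hybridization controls moved with 3bKI, and wt replicates 1 and 2 were the wt arrays at the same level. In a fit blocked on that level, 2 of the 7 genes called against wt still passed: Hsd3b7 at 0.64 ± 0.15 (adjusted p = 0.00825) and Cyp27a1 at 0.36 ± 0.10 (adjusted p = 0.0258). Cyp7a1 was then at -1.43 ± 0.51 (adjusted p = 0.0764), Cyp8b1 at 0.67, Nr0b2 at 0.35, Nr1h4 at -0.21 and Slc10a1 at -0.14, all in the same direction. Over all genes 8.7% passed in that fit. Its changes against wt are differences from wt replicates 1 and 2 alone, as in the fit of the higher level below. Both of these arrays had a Y-linked signal, and they read 12.09 and 11.09 for Cyp7a1, the latter the lowest wt value. Within the 5 3bKI and 2 wt arrays alone, Hsd3b7 was the 1 gene of the 10 to pass (0.64, adjusted p = 0.0273), and 0.731% of all genes, 133 in number, passed there. With RNA integrity as a covariate Hsd3b7 was again the 1 to pass (0.67, adjusted p = 0.048), beside 3.33% of all genes. In that fit Cyp7a1 was at -1.06 (adjusted p = 0.408), Nr0b2 at 1.71 and Nr1h4 at -0.10. RNA integrity, read as the 3' minus 5' signal of Gapdh and beta-actin, was 0.28 to 0.36 in 3bKI arrays and 0.48 to 0.65 in wt arrays. These ranges do not overlap. Poly-A controls did not overlap either, at 13.77 to 13.85 in 3bKI arrays, 8.5 to 9.7 in wt and 8.19 to 9.21 in 3aKO arrays. Wt replicates 1 and 2 thus match 3bKI in hybridization controls only, and genotype and array processing cannot be told apart by these fits. Against 3aKO 0 of the 10 genes passed in either fit (limma), where 6.77% of all genes passed with the block and 0.638% with RNA integrity, with Hsd3b7 at 0.54 and Cyp7a1 at -1.12 with the block, and no level of the controls held both groups.

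**Figure D3:**
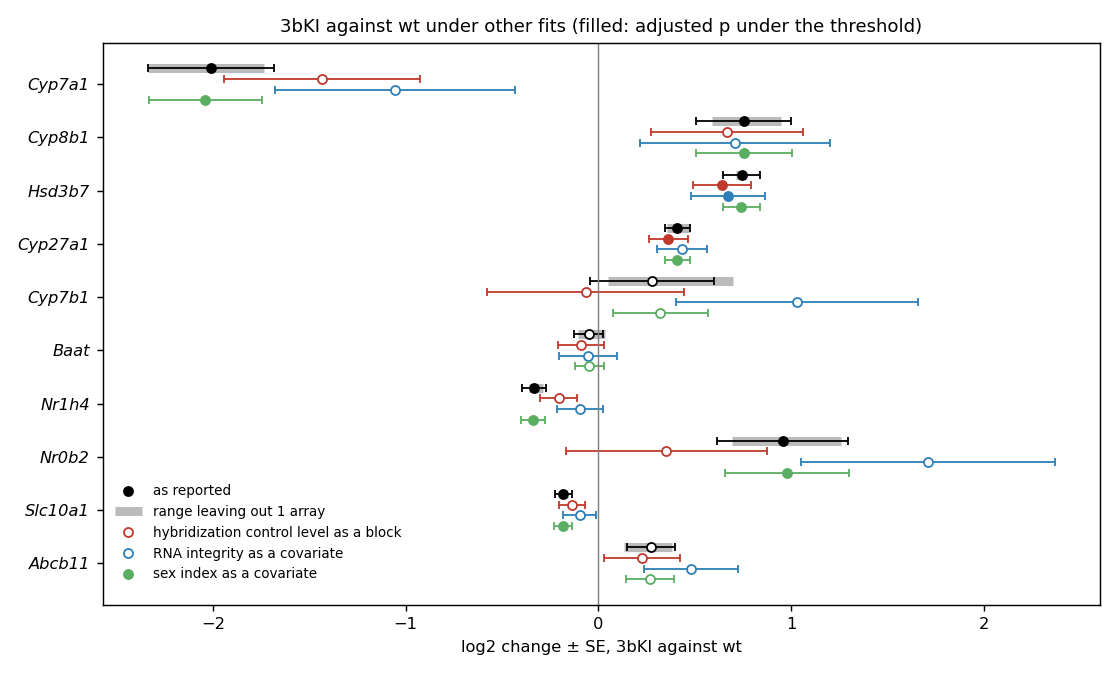
Log2 change of each gene in 3bKI (5 arrays) against wt (12 arrays) as reported and under 3 other fits, with bars for SE, filled points where the adjusted p was under 0.05, and grey bars for the range over 17 fits that each left out 1 array. Hsd3b7 stays past the threshold in every fit shown, at 0.64 to 0.76, while Cyp7a1 runs from -2.34 to -1.06.

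In 1KI livers the count of calls among the bile acid genes was close to the share over all genes. Against wt, Cyp27a1 rose and Baat fell, and 8 of the 10 did not pass, where 27.6% of all genes passed, 10.2% upward and 17.5% downward. Against 3aKO, Cyp27a1 and Nr1h4 rose, Baat fell and 7 did not pass, where 31% of all genes passed, 11.9% upward and 19% downward. Among genes above the median signal 41.8% and 47.4% passed, with 3 of the 10 called each time. The median size of change was 0.19 against wt and 0.22 against 3aKO, beside 0.10 and 0.11 over all genes, and the median log2 change of the 10 was 0.09 and -0.12. Equal array medians changed the split over all genes to 1578 higher and 4321 lower against wt, beside 1850 and 3176 as deposited, and to 1731 and 4494 against 3aKO, beside 2174 and 3462.

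**Figure D4:**
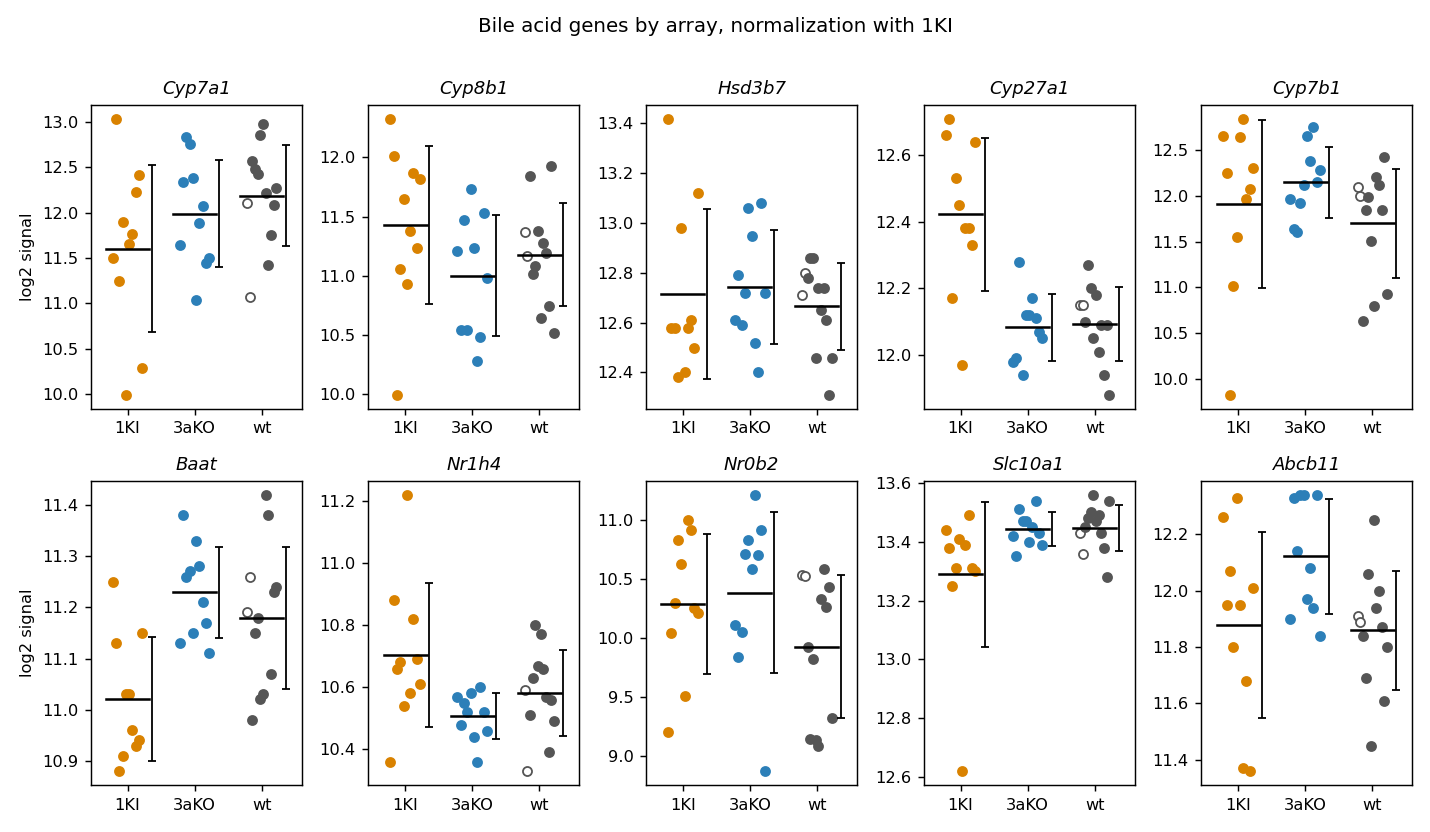
Log2 signal of each gene in every array of the normalization with 1KI (10 arrays), 3aKO (10) and wt (12); lines are group means, bars are SD, and open wt points are wt replicates 1 and 2. Cyp27a1 is higher in 9 of 10 1KI arrays than the wt mean, and 1 Slc10a1 value of 1KI, 12.62, lies far below the rest.

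Cyp27a1 had a lowest, median and highest log2 signal of 11.97, 12.41 and 12.71 in 1KI, against 11.94, 12.09 and 12.28 in 3aKO and 11.88, 12.10 and 12.27 in wt. The 1KI range began inside the others and ended well above them. The log2 change was 0.33 ± 0.07 against wt (adjusted p = 0.000315, higher in 9 of 10 arrays) and 0.34 ± 0.07 against 3aKO (adjusted p = 0.00028). Baat read 10.88, 10.99 and 11.25 in 1KI, against 11.11, 11.23 and 11.38 in 3aKO and 10.98, 11.19 and 11.42 in wt. It was lower than the wt mean in 9 of 10 arrays, with log2 changes of -0.16 ± 0.05 against wt (adjusted p = 0.0243) and -0.21 ± 0.06 against 3aKO (adjusted p = 0.0041). Against wt it did not pass after a further quantile normalization (-0.12, adjusted p = 0.0663). The second probe set of Baat also fell, by 0.19 and 0.26 (adjusted p = 0.0103 and 0.000811).

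Nr1h4 read 10.36, 10.67 and 11.22 in 1KI, against 10.36, 10.52 and 10.60 in 3aKO and 10.33, 10.58 and 10.80 in wt. The top value of 1KI came from replicate 6. The log2 change was 0.20 ± 0.07 against 3aKO (adjusted p = 0.0332) and 0.12 ± 0.07 against wt (adjusted p = 0.18). The call against 3aKO ended when 1 of 5 arrays was left out: 3aKO replicate 6 or 7, or 1KI replicate 2, 6 or 8, with log2 changes of 0.14 to 0.19 (adjusted p = 0.0519 to 0.0714). It ended too when the wt arrays were kept out of the fit (0.20, adjusted p = 0.0534) and with equal array medians (0.16, adjusted p = 0.0773).

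Cyp7a1 read 9.99, 11.71 and 13.04 in 1KI, against 11.04, 11.98 and 12.84 in 3aKO and 11.07, 12.24 and 12.98 in wt. The 1KI arrays reached both lower and higher than the rest, with an SD of 0.93, against 0.56 in wt. The log2 change was -0.58 ± 0.28 against wt (95% interval -1.13 to -0.03, adjusted p = 0.119), which passed without 1KI replicate 2 (-0.74, adjusted p = 0.0388), and -0.39 ± 0.29 against 3aKO (adjusted p = 0.338). Probe set 1422100_at gave -0.80 against wt (adjusted p = 0.0546).

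Cyp8b1 had a log2 change of 0.25 ± 0.22 against wt (adjusted p = 0.412) and 0.43 ± 0.23 against 3aKO (adjusted p = 0.152), which passed without 1KI replicate 3 (0.59, adjusted p = 0.0247). Hsd3b7, the most even riser in 3bKI, averaged 12.71 ± 0.34 in 1KI and 12.66 ± 0.17 in wt (SD, n = 10 and 12), with a log2 change of 0.05 ± 0.10 (95% interval -0.15 to 0.25). Replicates 1, 5 and 10 of 1KI read 13.42, 12.98 and 13.12, above the highest wt value of 12.86. The remaining 1KI arrays read 12.38 to 12.61 for Hsd3b7. Cyp7b1 was at 0.21 ± 0.26 against wt and -0.23 ± 0.28 against 3aKO. Its probe set 1421075_s_at gave 0.32 and -0.15, and the dim 1446995_at, with a mean of 3.29 in 1KI arrays, fell by 0.19 and 0.20 (adjusted p = 0.0233 and 0.0168). Nr0b2 was at 0.36 ± 0.25 against wt (adjusted p = 0.289) and -0.10 ± 0.26 against 3aKO.

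Of the transporters in 1KI, Slc10a1 was at -0.16 ± 0.06 against wt (adjusted p = 0.0625) and -0.15 ± 0.07 against 3aKO (adjusted p = 0.0786). It passed against wt without wt replicate 11, 1KI replicate 1 or 1KI replicate 8 (-0.17 to -0.18, adjusted p = 0.0371 to 0.046), and against 3aKO without 1KI replicate 8 (-0.18, adjusted p = 0.0471). Replicate 6 of 1KI, at 12.62, was far below the others, and without it the log2 change of Slc10a1 was -0.08 in both comparisons (adjusted p = 0.0965 and 0.124). With equal array medians it passed in both (-0.19, adjusted p = 0.0305 and 0.0323), and with RNA integrity as a covariate it passed at -0.11 and -0.14 (adjusted p = 0.0328 and 0.00625). Probe set 1450261_a_at gave -0.29 and -0.25 (adjusted p = 0.065 and 0.126), with a single array at 11.49. Abcb11 was at 0.02 ± 0.10 against wt and at -0.24 ± 0.11 against 3aKO (adjusted p = 0.0829), which passed without 1KI replicate 1 or 5 (-0.29 both times, adjusted p = 0.0405 and 0.033). Against 3aKO it also passed in 2 of 13 other alternatives (limma, lowest adjusted p = 0.0223), whose log2 changes ran from -0.31 to -0.21 over the 13. In fits blocked on the level of the hybridization controls, 0 of 10 genes passed in either 1KI comparison (limma), with Cyp27a1 at 0.27 against wt (adjusted p = 0.207), Baat at -0.20 (adjusted p = 0.241) and Cyp7a1 at 0.01. Over all genes 4.3% and 2.29% passed against wt and 3aKO in those fits. The blocked changes against wt are differences from wt replicates 1 and 2 alone, which had a Y-linked signal and read 12.11 and 11.07 for Cyp7a1. Within the 10 1KI and 2 wt arrays of the higher level 0 of the 10 genes passed, and 0.956% of all genes, 174 in number, did.

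**Figure D5:**
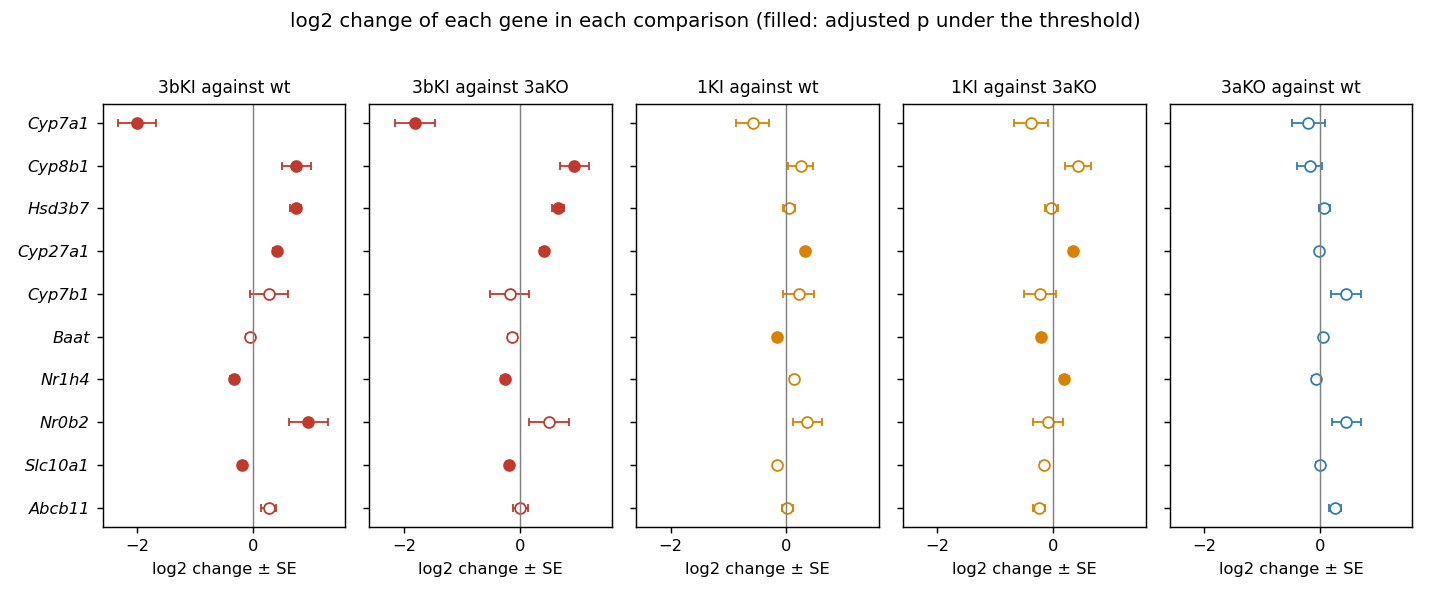
Log2 change ± SE of each gene in the 5 comparisons, with filled points where the adjusted p was under 0.05. For 3bKI the filled points number 7 against wt and 6 against 3aKO, for 1KI they number 2 and 3 in the same order, and 3aKO has 0.

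In 3aKO livers 0 of the 10 genes passed against wt with limma, and 1 had an unadjusted p under 0.05, as did 2166 of the 18193 genes. Over all genes 0.176% passed, 0.11% upward and 0.066% downward. That count is no result about the 10 genes. The gene was Abcb11, at 12.12 ± 0.20 in 3aKO and 11.86 ± 0.21 in wt (SD, n = 10 and 12), a log2 change of 0.26 ± 0.10 (95% interval 0.06 to 0.46, adjusted p = 0.297), with 9 of 10 arrays above the wt mean. Nr0b2 was at 0.46 ± 0.25 (adjusted p = 0.472), Cyp7b1 at 0.45 ± 0.26 (adjusted p = 0.512), Cyp7a1 at -0.20 ± 0.28 and Cyp8b1 at -0.18 ± 0.22. The other 5 genes had sizes of log2 change of at most 0.08, and the 95% interval of Cyp27a1 ran from -0.14 to 0.12.

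The order of the groups differed by gene. In the normalization with 3bKI, the mean of Cyp7a1 was 10.16 in 3bKI, 11.96 in 3aKO and 12.17 in wt, that of Hsd3b7 was 13.37, 12.70 and 12.62, and that of Nr0b2 was 10.81, 10.30 and 9.86 in the same groups. For none of the 10 genes did 3aKO and wt differ past the threshold, so the order of these neighbours is not settled for any of them. For Nr0b2, 3bKI and 3aKO did not differ past it either.

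Further genes of the pathway were grouped into lists of enzymes, transporters and regulators. In 3bKI against wt 4 of 12, 4 of 14 and 4 of 11 of them passed, beside 29.2% of all genes, so these counts do not set the lists apart. In 1KI against wt 6, 5 and 9 passed, beside 27.6% of all genes. Over all genes 13.4% rose and 15.9% fell in 3bKI against wt, and 10.2% rose and 17.5% fell in 1KI against wt. Of the 12 further bile acid enzymes, 3 fell and 1 rose in 3bKI against wt, with a median log2 change of -0.07 against 0.00 over all genes. Slc27a2, which activates bile acid precursors with coenzyme A, fell by 0.30 (13.61 ± 0.17 in 3bKI and 13.91 in wt), the peroxisomal enzyme Hsd17b4 fell by 0.28, and the oxysterol 7-alpha-hydroxylase Cyp39a1 fell by 0.84. Cyp46a1, the cholesterol 24-hydroxylase, rose by 0.34. In 1KI against wt 5 of these enzymes fell and 1 rose. Among them Slc27a5, the bile acid CoA ligase that acts before Baat, fell by 0.28, lower than the wt mean in 10 of 10 arrays, Akr1d1, the 5-beta-reductase, fell by 0.60, and Cyp46a1 rose by 0.43.

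Of the 14 further transporters, 4 fell and 0 rose in 3bKI against wt, and 5 fell and 0 rose in 1KI against wt (limma). Against 3aKO 6 fell and 0 rose in each (limma). Over all genes 15.9% fell in 3bKI and 17.5% in 1KI against wt, and 17.7% and 19% fell against 3aKO. The organic anion carrier Slco1a4 fell by 0.81 in 3bKI and by 0.75 in 1KI, and Slco1a1 fell by 0.46 in 3bKI and by 0.24 in 1KI. Abcb1a fell by 0.84 in 3bKI and by 0.66 in 1KI. The phospholipid flippase Atp8b1 fell by 0.32 in 3bKI, and Slc51b, a subunit of the basolateral exporter of bile acids, fell by 0.52 in 1KI. Of the 11 further regulators measured, 2 rose and 2 fell in 3bKI against wt, and 6 rose and 3 fell in 1KI against wt. Over all genes 13.4% and 10.2% rose in these comparisons. Klb, the co-receptor for the intestinal hormone FGF15, fell by 0.60 in 3bKI and by 0.61 in 1KI, with all 5 and all 10 arrays below the wt mean. Mafg, a repressor of bile acid genes, rose by 0.49 in 3bKI and by 0.56 in 1KI. Prox1 fell by 0.86 and Nr1h3 (LXR alpha) rose by 0.24 in 3bKI, while the xenobiotic receptors Nr1i2 and Nr1i3 rose by 0.60 and 0.46 in 1KI. In 3aKO against wt 0 genes of these 3 lists passed (limma).

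Clock genes differed between 3bKI and wt arrays. Cyp7a1 is known to follow a daily rhythm through the clock output factors Dbp, Tef and Hlf. Of 15 clock genes, 7 fell and 3 rose in 3bKI against wt, with a median log2 change of -0.67, beside 13.4% of all genes upward and 15.9% downward. Dbp, named for its role after its values were seen, read 6.97, 11.68, 6.56, 11.49 and 9.73 in 3bKI replicates 1 to 5, against 11.56, 12.25 and 12.50 (lowest, median, highest) in 3aKO and 10.44, 12.21 and 12.35 in wt. Replicates 1, 3 and 5 lay below every other array and replicates 2 and 4 within the wt range. Its log2 change against wt was the largest in size of the 15, -2.58 ± 0.54 (adjusted p = 0.000461). Per2 fell by 1.50, Per3 fell by 1.91, Tef fell by 1.26 and Hlf fell by 0.68. Nfil3 (8.38 and 7.72), Nr1d1 (8.91 and 8.05), Arntl (7.11 and 6.71) and Clock (8.24 and 7.81) had higher means in 3bKI than in wt. A mean over the 15 genes joins genes that rose with genes that fell. The mean of the 15 genes was 7.77, 8.58, 7.30, 8.51 and 7.94 in 3bKI replicates 1 to 5, against 8.51 to 8.71 in 3aKO and 8.50 to 8.71 in wt. Replicates 2 and 4 lay in the range of the other groups, and in them Cyp7a1 was 11.46 and 10.18. Replicate 3, with the lowest clock mean, had a Cyp7a1 of 10.85, above replicate 4. The part of clock gene levels in the bile acid results was not tested. In 1KI against wt 5 clock genes rose and 2 fell, beside 10.2% of all genes upward and 17.5% downward. Cry2 rose by 0.34, Per1 by 0.62, Ciart by 0.94 and Clock by 0.31. Dbp averaged 11.01 ± 0.98 in 1KI, 12.21 ± 0.29 in 3aKO and 11.89 ± 0.67 in wt, and had a log2 change of -0.88 against wt (adjusted p = 0.0175) and -1.21 against 3aKO (adjusted p = 0.00177).

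Markers of zones and of other cell types also changed. In 3bKI against wt, where 29.2% of all genes passed, 3 of 4 periportal and 4 of 5 stellate genes did, with a median log2 change of 0.37 and -0.38. Of 8 pericentral genes 1 rose (Axin2, by 0.52), while of the 4 periportal genes 2 rose (Ass1 by 1.07 and Hal by 0.68) and 1 fell (Pck1, by 0.45). Of other cells' markers, 1 of 5 cholangiocyte genes rose (Sox9, by 0.25), 1 of 7 Kupffer cell genes rose (Cd5l, by 0.54), 1 of 6 endothelial genes rose (Pecam1, by 0.43), and of 5 stellate genes 1 rose (Des, by 0.21) and 3 fell (Reln by 0.42, Colec11 by 0.38 and Lrat by 0.44). Group ranges of the mean marker signal overlapped in 3bKI and wt for each of these lists: 5.63 to 5.77 and 5.52 to 5.79 for cholangiocytes, 8.88 to 9.81 and 9.08 to 9.51 for Kupffer cells, 8.01 to 8.45 and 7.95 to 8.46 for endothelium, and 9.01 to 9.06 and 9.03 to 9.72 for stellate cells. In 1KI against wt the periportal gene Ass1 rose by 1.25 and the pericentral gene Slc1a2 by 0.40. Of the other cells' markers in 1KI, the cholangiocyte gene Epcam fell by 0.19, the endothelial gene Stab1 rose by 0.30 and Kdr fell by 0.22, and the stellate gene Reln fell by 0.16. Of 7 Kupffer cell genes 0 passed there (limma), with an unadjusted p under 0.05 for 2. Their part in the bile acid results was not tested.

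The genes most like Cyp7a1 across arrays, once group means were subtracted, were Mtss1 (r = 0.76), Prps1l3 (0.76), Riok1 (0.76), Pcp4l1 (0.73) and Slc39a14 (0.72) over the 27 arrays of the normalization with 3bKI. Over the 32 arrays of the normalization with 1KI they were Mfsd2a (0.77), Chd9 (0.71), Ppif (0.70), Tgfbr3 (0.68) and Pik3r1 (0.67), and the lists share no gene although 22 arrays are the same. For Nr0b2 they were Ptp4a2 (0.71), Trim8 (0.71), Emc3 (0.70), Tgif1 (0.69) and Arpp19 (0.69) over the 27 arrays, and Efna1 (0.80), Creb3l2 (0.74), Ppp1r14b (0.74), Ticam1 (0.73) and Eif2ak3 (0.72) over the 32. Each list holds the 5 highest Pearson correlations among genes above the median signal.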

How the data were processed

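Total RNA from livers of 4-week-old mice was measured on 37 Affymetrix arrays of 45101 probe sets. The values are log2 signals deposited by the authors after normalization across arrays, per the labels in 2 normalizations. The labels do not state the method of normalization, and the base of the logarithm was inferred from the range of the values. The columns number 59, since the wt and 3aKO arrays occur in both normalizations. Probe sets with exactly 1 gene symbol were kept, with the probe set of highest mean per gene.

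Each comparison was a contrast in a linear model of limma 3.58.1 (R 4.3.3), with moderated variances, no intensity trend and all arrays of its normalization in the fit. P-values were adjusted by Benjamini-Hochberg over 18193 genes within each of 5 comparisons, at 0.05. Probe sets beyond the main one were tested in a fit over 34945 probe sets. Errors of log2 changes are moderated standard errors (SE), and 95% intervals of changes are the change ± a normal quantile of the SE. The number of arrays limits precision. The fits were tested on simulated data. The 3aKO comparison used the normalization with 1KI. Alternatives were other array scalings, filters, probe set choices, array weights, covariates, blocks and leaving out each array. The hybridization control level of an array was called higher where it reached the lowest value of 1KI or 3bKI. Promoters came from RefSeq (GRCm38.p6).

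Members and lists were chosen with earlier results of these data known. Up to 4 called genes of a list were named per comparison, by smallest p. Same-numbered arrays of different genotypes had correlations of deviations between -0.34 and 0.38. Differently numbered arrays were not correlated for comparison, so this range cannot decide whether the numbers pair arrays.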

Additional observations from a re-analysis of the deposited data

Results flagged for a closer look

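Of 30 sets of values (10 genes in the 3bKI, 1KI and 3aKO arrays), 1 held an array far from the others, and chance gives about 1 in 20. Slc10a1 was at 12.62 in 1KI replicate 6, with the nearest array at 13.25, a gap of 0.724 of the whole range. Its second probe set read 11.49 in the same array. That array also had the highest 3' minus 5' signal of the 1KI arrays, 1.75, against 0.48 to 0.65 in wt arrays, and the highest poly-A controls of the 1KI arrays, 10.86. It gave the highest Nr1h4 and the lowest Cyp27a1 of the 1KI arrays (11.22 and 11.97). Their part in the value was not tested.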

How the results depend on the processing

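Calls in 3aKO against wt numbered 0 of 10 in all 15 alternatives and in 22 fits that each left out 1 array (limma; unadjusted p under 0.05 for 1 gene). For 1KI the calls numbered 2 against wt and 3 against 3aKO, and for 3bKI 7 and 6. Blocked on the level of the hybridization controls they numbered 0 and 0 for 1KI and 2 and 0 for 3bKI, and with RNA integrity as a covariate 1 and 0 in the 3bKI comparisons. Within arrays of the higher level, against wt, they numbered 0 for 1KI and 1 for 3bKI. In 1KI against wt a further quantile normalization and the replicate block each gave 1. With the replicate block the counts were 0 for 3aKO, 1 and 3 for 1KI and 6 and 6 for 3bKI, and the block ended the calls against wt of Nr0b2 in 3bKI (adjusted p = 0.0759) and of Baat in 1KI (adjusted p = 0.0734). Leaving out 1 array gave 2 to 3 and 2 to 4 calls for 1KI, and 5 to 8 and 6 for 3bKI. Over all genes the hybridization block cut the calls to 782 (wt) and 417 (3aKO) for 1KI and to 1583 and 1232 for 3bKI, and RNA integrity cut them to 605 and 116 in the 3bKI comparisons. The cause was not tested.

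Of the calls, Nr1h4 in 3bKI against 3aKO changed sign, at 0.0521 with RNA integrity as a covariate. Other sign changes were of values not past the threshold. In 3aKO against wt, Slc10a1 was 0.0035 with equal array medians, 0.0015 with array weights and 0.0324 with RNA integrity, and Cyp27a1 was 0.0020 with the hybridization block, within the lower level or without wt replicates 1 and 2, and 0.0146 with RNA integrity. In 1KI against wt, Abcb11 was -0.0092 with equal medians, -0.0158 with array weights, -0.0220 with the hybridization block or within the higher level, -0.0051 with the sex index and -0.0120 with the replicate block. There the hybridization block and the higher level alone gave 0.0140 for Cyp7a1, -0.1340 for Cyp7b1, -0.0400 for Hsd3b7 and -0.2390 for Nr0b2, and the replicate block -0.0060 for Hsd3b7. In 1KI against 3aKO the hybridization block gave 0.3310 for Cyp7a1. In 3bKI against wt, Baat was 0.0015 after quantile normalization and Cyp7b1 was -0.0650 with the hybridization block or within the higher level. In 3bKI against 3aKO, Abcb11 was -0.0480 with equal medians, -0.0420 with the hybridization block and -0.0235 with the replicate block, Nr0b2 was -0.2140 with the hybridization block and Cyp7b1 0.7965 with RNA integrity. Leaving out 1 array turned 9 values that had not passed. Against wt they ran from -0.0314 to 0.0066 for Cyp27a1 and from -0.0197 to 0.0058 for Slc10a1 in 3aKO, from -0.0314 to 0.0764 for Abcb11 and from -0.0283 to 0.0872 for Hsd3b7 in 1KI, and from -0.1083 to 0.0367 for Baat in 3bKI. Against 3aKO they ran from -0.1073 to 0.0083 for Hsd3b7 and from -0.2629 to 0.0257 for Nr0b2 in 1KI, and from -0.1280 to 0.1195 for Abcb11 and from -0.4025 to 0.2450 for Cyp7b1 in 3bKI.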

Other observations

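The labels give no sex, but the arrays fall into a set with a high signal of the Y-linked genes Eif2s3y, Kdm5d and Uty and a set with a low one (7.01 to 7.74 and 3.40 to 3.91 on the log2 scale in the normalization with 3bKI). Cyp7a1, which makes bile acids from cholesterol, ran lower in the Y-signal arrays of wt livers, at 11.09 to 12.24 in 7 arrays against 12.38 to 12.99 in 5 arrays without it, with no overlap. In 3aKO livers it was 11.00 to 12.05 in 5 arrays with the signal and 11.59 to 12.82 in 5 without it, which overlap. In 3bKI livers the 3 arrays with the signal (9.24 to 11.46) and the 2 without it (9.05 and 10.85) overlapped too. Their means, 10.29 with the signal and 9.95 without it, ran opposite to those of wt. In 1KI livers, in their own normalization, it was 10.29 to 12.42 with the signal and 9.99 to 13.04 without it. The 1KI means were 11.67 and 11.54.

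Cyp7b1 had a higher mean with the signal in each group. In 3bKI livers it was 12.63 to 12.86 in the 3 arrays with the signal and 10.27 and 11.26 in those without it, and in 3aKO livers it was 12.12 to 12.73 and 11.58 to 12.09. In wt livers the ranges overlapped, 10.89 to 12.40 with the signal and 10.61 to 11.97 without it. They overlapped in 1KI livers too, at 11.96 to 12.84 and 9.83 to 12.65 in the normalization with 1KI. With the sex index (Xist minus the Y-linked mean) as a covariate, the change of Cyp7a1 in 3bKI against wt was -2.04 (adjusted p = 3.97e-06) and that of Cyp7b1 was 0.32 (adjusted p = 0.357). These sets were made from the array values and were not tested as groups.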
